A study of Mus musculus with 3 samples.

Results

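Phospholipase A2 enzymes cut the fatty acid at the middle position of a membrane phospholipid, which frees arachidonic acid and other polyunsaturated fatty acids together with a lysophospholipid. Secreted forms act outside the cell and depend on calcium, cytosolic and calcium-independent forms act inside it, and the platelet-activating factor acetylhydrolases are a branch that inactivates platelet-activating factor, PAF. In lymphoid organs the secreted enzyme Pla2g2d is known from dendritic cells and macrophages and is linked to lipid mediators that restrain inflammation. The family was followed through 10 genes, taken by name: Pla2g2d, Pla2g5, Pla2g10, Pla2g12a, Pla2g4a, Pla2g6, Pla2g15, Pla2g16, Pla2g7 and the receptor gene Pla2r1. Every non-control probe carrying one of these names was used, which gave 10 of 34796 gene names and 13 of the 55679 gene probes that kept at least 1 spot after outlier spots were dropped.

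The tissue was spleen of mice labelled C57BL/6J, a strain that the methods write as C57BL/6. In the study male recipients were made diabetic with streptozotocin, a drug toxic to beta cells, and were given syngeneic islets, 25 in the spleen and 100 under the kidney capsule. Sample 1 was collected at day 0, directly after grafting, Sample 2 at day 2, and Sample 3 at day 139, with the graft-bearing kidney taken out at day 100. Each condition had 1 array, so no test was possible and each difference describes these arrays. The protocol gives the grafts under the capsule for all of the samples, whereas the characteristics name them for Sample 3 only. Day, nephrectomy and whatever else separated the mice cannot be told apart, the number of mice per array is not stated, and no ungrafted spleen was analysed here.

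The B cell, T cell and macrophage markers were all well above background on every array, 12 of 12, 12 of 12 and 14 of 14, as spleen should show. Between 28088 probes (Sample 3) and 30291 probes (Sample 1) were well above background, no gene spot was saturated, and 32108 probes were detected, meaning well above background on at least 1 array. The signals below are background-subtracted intensities after quantile normalization of the 3 arrays. The ± beside a log2 ratio is the error that the scanner software attaches to the spots, carried over to the ratio; it covers the spots and not the spread between mice. Scaling to the spike-in controls instead shifted the array median of the log2 ratios, over all detected probes, from -0.02 to 0.40 for Sample 3 over Sample 1 and from -0.04 to 0.47 for Sample 3 over Sample 2, so every higher or lower below is relative to the bulk of the array.

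The probe sequences show which stretch of each transcript was read. Both probes of Pla2g2d carry the same transcript accession and begin 886 bases apart on chromosome 4 of mm9, the build of the array's annotation, at chr4:138337867-138337926 and chr4:138336981-138337040 on the plus strand. The last bases of the brighter one and a window of the dimmer one are shown 5′ to 3′, with the polyadenylation hexamer AATAAA in capitals where the window held it. The other pair shown are the Pla2g5 probe that was not detected and the dimmer Pla2g7 probe, since each behaved unlike the second probe of its gene.
Pla2g2d brighter probe, 30 of 60 bases: tctgtctgagtcagaaaatagccactttaa
Pla2g2d dimmer probe, 30 of 60 bases: caaagagccctcttAATAAAcaactttcac
Pla2g5 dimmer probe, 60 bases: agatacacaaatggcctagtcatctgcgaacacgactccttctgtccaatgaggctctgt
Pla2g7 dimmer probe, 60 bases: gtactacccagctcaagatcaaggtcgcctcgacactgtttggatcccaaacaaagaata
The hexamer was in 4 of the 13 probes of the family and in 10.1% of the 55681 gene probes of 60 bases on the array, outliers included, searched on the probe strand. The dimmer Pla2g5 probe is placed at chr4:138356545-138357294 on the minus strand, 750 bases of genome for 60 bases of probe, so it crosses at least 1 intron. Whether the other probes lie in coding exons or in untranslated regions was not annotated here.

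Of the 13 probes 11 were detected, each on all 3 arrays, and they covered 9 of the 10 genes. The exceptions were Pla2g10 and the dimmer Pla2g5 probe. Pla2g2d was higher in Sample 3 than in both earlier samples on both of its probes, Pla2g5 was higher in Sample 3 than in Sample 2, Pla2g7 was lower in Sample 3 on its dimmer probe, and the genes for the intracellular enzymes stayed between ratios of 0.66 and 1.5 throughout.

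**Figure D1:**
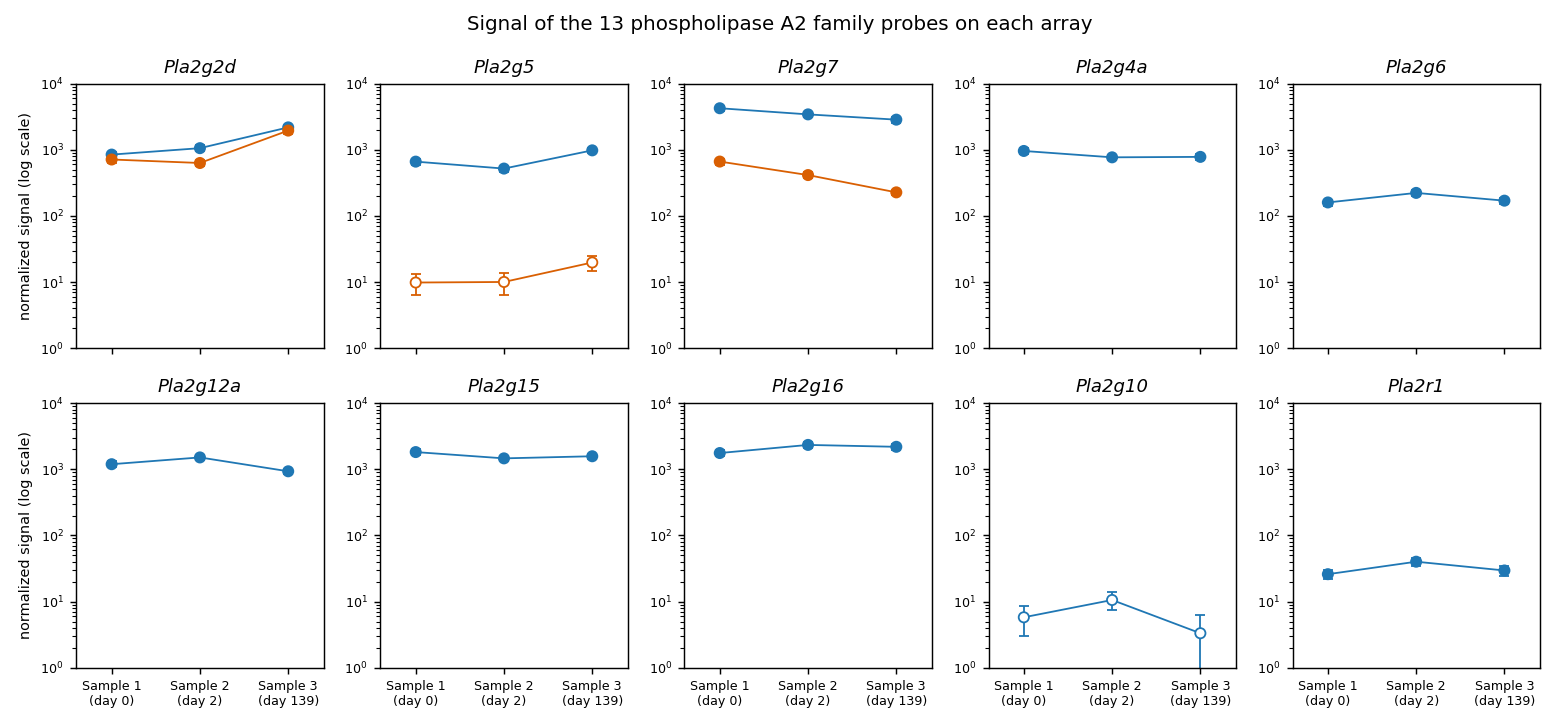
Normalized signal (log scale) of each probe of the 10 genes on the 3 arrays, by sample and day. Blue is the only or brighter probe of a gene and orange the dimmer one, filled points were well above background and open points were not, and bars are the scanner software's error. Both Pla2g2d probes are highest in Sample 3 and both Pla2g7 probes are lowest there.

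Among the secreted enzymes, the brighter Pla2g2d probe read 846 at day 0 (Sample 1), 1058 at day 2 (Sample 2) and 2181 at day 139 (Sample 3). The dimmer probe read 713, 631 and 1952 in the same order. Sample 3 stood above both other arrays on each probe, while the earlier samples lay close together and changed places from one probe to the other. The log2 ratio of Sample 3 over Sample 1 was 1.37 ± 0.20 on the brighter and 1.45 ± 0.20 on the dimmer probe, a difference between probes of 0.09. Over Sample 2 it was 1.04 ± 0.20 and 1.63 ± 0.20, a difference of 0.58, or 2.02 times its scanner error. Sample 2 over Sample 1 gave 0.32 ± 0.20 and -0.18 ± 0.20, opposite in sign. For scale, 2916 genes had exactly 2 probes well above background on all 3 arrays, both for the same transcript. Among them the median difference between the probes was 0.22, 0.24 and 0.21 in these comparisons. Of these genes 16.8% differed by as much as Pla2g2d did for Sample 3 over Sample 2.

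The study called a probe up-regulated at a ratio of at least 1.5 with a Z-score of at least 2, and down-regulated at a ratio of at most 0.66 with a Z-score of at most -2. Here the Z-score was the log2 ratio over the SD of the 1000 detected probes nearest in mean signal. Over Sample 1 both Pla2g2d probes met the criteria, at Z-scores of 2.44 and 2.64, but with 1 SD taken over all detected probes 0 of them did. Over Sample 2 the dimmer probe met them at 2.92, but the brighter one, at a ratio of 2.06, stayed short at 1.63. The SD of its neighbours in signal was 0.64 against 0.56 for the dimmer probe. Among all detected probes, 96.1% lay below the brighter Pla2g2d probe in Sample 3 over Sample 1 and 94.5% in Sample 3 over Sample 2.

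Pla2g5, a secreted enzyme of macrophages and fat tissue, gave 662 in Sample 1, 520 in Sample 2 and 980 in Sample 3 on its brighter probe. Sample 3 was again the highest and Sample 2 the lowest. The ratio was 1.48 over Sample 1, just short of 1.5 (log2 0.57 ± 0.20), and 1.89 over Sample 2 (log2 0.91 ± 0.20), with Z-scores of 1.00 and 1.58. Its intron-crossing probe read 9.85, 10.04 and 19.8, not well above background on any array, so it gives no second reading of the change. That probe carries a different transcript accession from the brighter one. Levels of different probes are not comparable.

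Pla2g12a, a widely expressed secreted form, took another course. It read 1194, 1513 and 933, highest in Sample 2 and lowest in Sample 3. The log2 ratio of Sample 3 over Sample 2 was -0.70 ± 0.20, a ratio of 0.617 at a Z-score of -1.05. Relative to Sample 1 it was -0.36 ± 0.20, which spike-in scaling turned to 0.11. Pla2g10, a secreted enzyme known best from gut and airway, read 5.80, 10.6 and 3.33, not well above background on any array.

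Pla2g2d and Pla2g5 are neighbours in the group II cluster of mouse chromosome 4, where the RefSeq table of GRCm38.p6 lists Pla2g2c, Pla2g2f, Pla2g2d, Pla2g5, Pla2g2a and Pla2g2e in this order. Pla2g2f, a secreted form known from skin, was dim but well above background, at 44.2, 91.9 and 148. Its log2 ratio was 1.75 ± 0.23 for Sample 3 over Sample 1, 0.69 ± 0.21 for Sample 3 over Sample 2 and 1.06 ± 0.23 for Sample 2 over Sample 1. It was thus highest in Sample 3 as its neighbours were, and was already past 1.5-fold in Sample 2, where Pla2g2d and Pla2g5 were not. Pla2g2c, Pla2g2e and Pla2g2a, which the table gives as a transcribed pseudogene, were not well above background on any array.

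RefSeq's GRCm38.p6 table held start regions for all 10 genes. That of Pla2g2d is shown because 3 genes of its cluster were highest in Sample 3. Of all detected probes, 47.8% were higher in Sample 3 than in Sample 1 and 46.8% higher than in Sample 2. Shared regulation of the cluster was not tested. The region shown covers the 250 bases before the annotated start at chr4:138775485-138775734, plus strand, with the only CCAAT in capitals.
Pla2g2d, 250 bases before the start: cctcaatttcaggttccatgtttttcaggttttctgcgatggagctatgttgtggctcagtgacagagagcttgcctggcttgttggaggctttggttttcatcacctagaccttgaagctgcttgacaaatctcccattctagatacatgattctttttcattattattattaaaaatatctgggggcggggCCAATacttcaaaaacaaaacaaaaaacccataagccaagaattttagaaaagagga
The window was 39.6% GC, against a median of 52.4% over 32851 windows of the same length, and 55.2% and 57.2% at the 2 starts listed for Pla2g5. CCAAT, searched on both strands, begins 57 bases before the start here and was present in 33.8% of all windows. TATAAA was not in this window on either strand and was in 12.4% of all windows.

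The genes for the intracellular enzymes varied less. Pla2g4a encodes the cytosolic enzyme that prefers arachidonic acid and feeds prostaglandin and leukotriene synthesis, and it read 960, 769 and 781. Sample 1 was the highest, and the log2 ratios of Sample 2 and of Sample 3 over it were -0.32 ± 0.20 and -0.30 ± 0.20. Pla2g6, the calcium-independent enzyme of membrane remodelling, read 160, 223 and 170 and was highest in Sample 2, by a log2 ratio of 0.48 ± 0.21 over Sample 1. Pla2g15, a lysosomal enzyme abundant in macrophages, read 1822, 1464 and 1576, with log2 ratios between -0.32 and 0.11. Pla2g16, named Plaat3 in the RefSeq table and known as a phospholipase of fat cells, read 1763, 2338 and 2188. It was higher than Sample 1 in both later samples, by log2 ratios of 0.41 ± 0.20 and 0.31 ± 0.20. No ratio of these 4 genes reached 1.5 or 0.66 after quantile normalization. Spike-in scaling, which shifts the whole array, put Pla2g16 past 1.5 in Sample 3 over Sample 1, at a log2 ratio of 0.77, and Pla2g15 past it in Sample 3 over Sample 2, at 0.61. It also turned the sign of Pla2g4a and Pla2g15 in Sample 3 over Sample 1, to 0.15 and 0.25, and of Pla2g6 and Pla2g16 in Sample 3 over Sample 2, to 0.11 and 0.41.

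Pla2g7, the plasma PAF acetylhydrolase made by macrophages, had 2 detected probes that begin 17287 bases apart on chromosome 17 of mm9, the dimmer at chr17:43731745-43731804 and the brighter at chr17:43749032-43749091 on the plus strand. The brighter read 4246, 3429 and 2854 and the dimmer 664, 415 and 227. On both, Sample 1 was the highest and Sample 3 the lowest. The size differed between the probes, with log2 ratios of Sample 3 over Sample 1 of -0.57 ± 0.20 on the brighter, a ratio of 0.672 that just missed 0.66, and -1.55 ± 0.21 on the dimmer. That difference of 0.97 was 3.36 times its scanner error, and 4.22% of the 2916 genes compared in this way differed by as much. The dimmer probe met the down-regulation criteria over Sample 1 with a Z-score of -2.35, whereas the brighter was at -0.95. With spike-in scaling, or with 1 SD over all detected probes, 0 Pla2g7 probes met them. Sample 3 over Sample 2 gave -0.26 ± 0.20 and -0.87 ± 0.21, and Sample 2 over Sample 1 gave -0.31 ± 0.20 and -0.68 ± 0.20. Spike-in scaling turned the brighter probe's ratio of Sample 3 over Sample 2 to 0.22, below that scaling's array median of 0.47.

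Pla2r1, the receptor that binds secreted phospholipases, was dim on all 3 arrays, at 26.0, 40.1 and 29.6. Sample 2 was the highest, with a log2 ratio of 0.63 ± 0.30 over Sample 1. After a different background correction, normexp, the same ratio was 0.14.

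**Figure D2:**
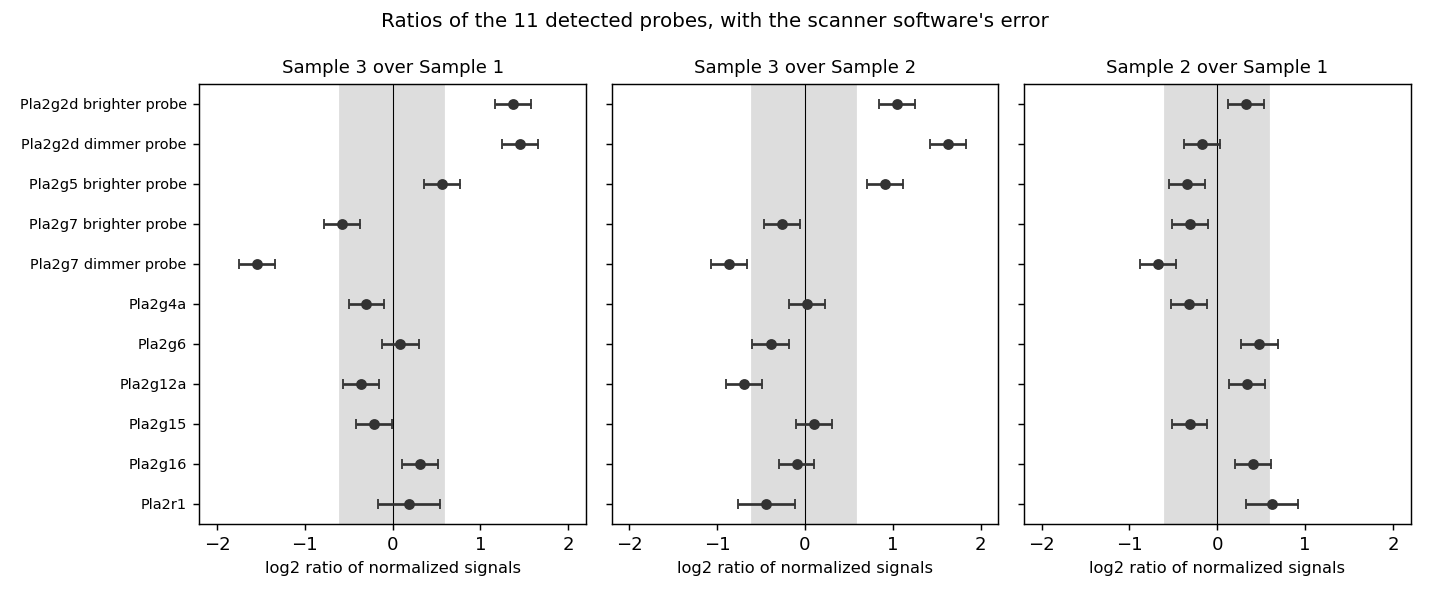
Log2 ratio of normalized signals for the 11 detected probes in the 3 comparisons, with bars for the scanner software's error. The grey band runs from a ratio of 0.66 to 1.5; both Pla2g2d probes lie to its right in the 2 comparisons with Sample 3, and the dimmer Pla2g7 probe lies to its left in all 3.

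For Sample 3 over Sample 1, 2 of the 11 probes reached a ratio of 1.5, both of Pla2g2d, beside 12.8% of all detected probes. The dimmer Pla2g7 probe alone was at or below 0.66, beside 14.7%. With the Z-score added the counts stayed at 2 up and 1 down, beside 2.52% and 2.21%. The median over the 11 probes was 0.09, and -0.02 over all detected probes.

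For Sample 3 over Sample 2, 3 probes reached 1.5, both of Pla2g2d and the brighter of Pla2g5, beside 12.4% of all detected probes. Pla2g12a and the dimmer Pla2g7 probe were at or below 0.66, beside 14.4%. With the Z-score 1 probe was up and 0 down, beside 2.39% and 1.77%. The median was -0.10 against -0.04 over all detected probes.

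For Sample 2 over Sample 1, 1 probe (Pla2r1) reached 1.5 and 1 (the dimmer of Pla2g7) was at or below 0.66, beside 10.1% and 10.4%. None met the full criteria in either direction, beside 1.91% and 2.55%. The median was -0.18 against 0.01. The comparisons share arrays, so their values for a gene are not independent readings. With 11 probes of 9 genes, shares near the background say nothing particular about the family.

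Of 17 other phospholipase A2 and PAF hydrolase genes looked up, 9 were detected, and 2 were higher and 1 was lower than the 1.5 and 0.66 lines in Sample 3 over Sample 1, beside 12.8% and 14.7% of all detected probes. Apart from Pla2g2f, the higher gene was Pafah1b3, a catalytic subunit of the intracellular PAF acetylhydrolase, at 949, 1452 and 2872 with a log2 ratio of 1.60 ± 0.20. It was higher on each later array, while Pla2g7, the secreted enzyme for the same substrate, was lower on each. The other catalytic subunit, Pafah1b2, read 225, 216 and 219, and the regulatory subunit Pafah1b1 read 5432, 5627 and 4778. The lower gene was Pla2g4c, a membrane-bound calcium-independent relative of Pla2g4a, at 100, 144 and 34.0. Its log2 ratio was -2.08 for Sample 3 over Sample 2 and -1.56 for Sample 3 over Sample 1. Pla2g4b read 3051, 1952 and 2999, Pla2g1b 46.0, 44.0 and 61.2, Pafah2 54.8, 96.4 and 68.8 and Pnpla8 56.2, 38.7 and 54.6. Pla2g3, Pla2g4d, Pla2g4e, Pla2g4f and Pla2g12b were not well above background on any array.

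All 16 genes listed for the metabolism of freed arachidonic acid, prostaglandins and leukotrienes were detected. In Sample 3 over Sample 1, 1 was at or above 1.5 and 6 were at or below 0.66, beside 12.8% and 14.7% of all detected probes, with a median log2 ratio of -0.19. In Sample 3 over Sample 2 these counts were 1 and 7, beside 12.4% and 14.4%, with a median of -0.42. Among the 13 genes well above background on both of these arrays the counts were 0 and 5. The median was -0.36 without Ptgs2, which was not well above background on either array, and with the genes dim on 1 array at their bound. After spike-in scaling the medians were 0.25 and 0.09, below that scaling's array medians of 0.40 and 0.47. Ptgs2, the inducible cyclooxygenase, read 76.5 in Sample 1 and was not well above background afterwards (9.10 and 5.59), at least 5.45-fold lower in Sample 2 and at least 4.20-fold lower in Sample 3. Each bound is the brighter signal over the higher of the dim signal and the lowest signal well above background on that array. Ptgds, a prostaglandin D synthase, read 495, then 7.03 at day 2, not well above background, and 36.2 at day 139.

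The lipoxygenase genes did not share one course. Alox15, the 12/15-lipoxygenase, read 70.3 and 312 and then 18.3, not well above background in Sample 3, which was at least 17.1-fold below Sample 2. Ltc4s, leukotriene C4 synthase, read 1123, 3436 and 1353, and Alox5, the 5-lipoxygenase, read 355, 506 and 186. Both were highest in Sample 2, Alox5 short of 1.5-fold over Sample 1, and Alox5 was lowest in Sample 3. Alox5ap, the protein that presents arachidonic acid to Alox5, read 7183, 5513 and 3127, lowest in Sample 3 by a log2 ratio of -1.20 ± 0.20 over Sample 1. Alox12, the platelet-type lipoxygenase, read 1249, 1168 and 766 and was highest in Sample 1.

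Of 17 genes for eicosanoid and other lipid mediator receptors 12 were detected, and in Sample 3 over Sample 1 none reached 1.5 while 4 were at or below 0.66, beside 12.8% and 14.7% of all detected probes (median log2 ratio -0.13). Ltb4r1, the high-affinity leukotriene B4 receptor of neutrophils and other leukocytes, read 1211, 513 and 316. Fpr2, a formyl peptide and lipoxin receptor, read 867, 462 and 475, and Ptafr, the PAF receptor, 142, 155 and 93.9. Cysltr1, a receptor for cysteinyl leukotrienes, read 115, 224 and 97.6 and was highest in Sample 2, as was Ptger1, a prostaglandin E2 receptor, at 59.3, 127 and 67.6. Some neutrophil markers were lower in Sample 3 than in Sample 1 as well, S100a8, S100a9, Cxcr2, Retnlg and Mmp8, which made 5 of 12 at or below 0.66. Of the same 12, 6 were higher and 1 was at or above 1.5, beside 47.8% and 12.8% of all detected probes, and the median log2 ratio was -0.11. Their summed signal was 269804, 119169 and 125050, and 122795, 67811.5 and 66460.5 without S100a9, the brightest. Their part in these receptor values was not tested.

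Of the enzymes that put fatty acids back on lysophospholipids, 7 of 8 were detected. In Sample 3 over Sample 1, 1 of the 7 was at or above 1.5 and 1 at or below 0.66, near the 12.8% and 14.7% of all detected probes. These were Lclat1 and Lpcat3, with log2 ratios of 0.59 ± 0.21 and -0.66 ± 0.20. The list median was -0.21. Lclat1 read 187, 249 and 282 and Lpcat3 1343, 1104 and 851.

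Marker genes of the cells a spleen sample could hold were set beside Pla2g2d. In bulk tissue, more cells of a type and more RNA per cell cannot be told apart. For dendritic cells, a known source of Pla2g2d, 11 of 12 markers were detected. The median log2 ratio of Sample 3 over Sample 1 was 0.07, with 7 higher and 4 lower, beside 47.8% of all detected probes higher. Their summed signal was 89803, 84651 and 82338, most of it from Siglech, and without Siglech it was 13523, 12029 and 17402, highest in Sample 3. The brightest genes of the latter sum were Ccr7, at 5075, 4172 and 7735, and Itgax, which encodes CD11c, at 4382, 4325 and 5545. Which cells gave the Ccr7 signal was not tested, and T and B cell markers were higher in Sample 3 too. The 4 lower genes were Siglech, Cd209a, Clec10a and Itgae. For macrophages the median over 14 markers was 0.04 and the summed signal was 151512, 156370 and 145391. Single markers of both lists went either way in Sample 3 over Sample 1. Xcr1, a dim marker of cross-presenting dendritic cells, differed by 0.79 on the log2 scale, Clec9a by 0.21 and Batf3 by 0.12. Itgae, not well above background in Sample 3, differed by -0.79. Marco of marginal zone macrophages differed by -1.28 and the macrophage marker Emr1 by 0.65.

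Lymphocyte markers were higher in Sample 3. All 12 T cell markers and 10 of 12 B cell markers were at or above 1.5 over Sample 1, beside 12.8% of all detected probes. The medians were 0.90 and 1.07. Summed signals were 21807, 29889 and 42308 for T cells and 63618, 65492 and 123015 for B cells. Of 5 detected regulatory T cell markers 2 were at or above 1.5 over Sample 1, beside the same 12.8%. They were Ikzf2, at 68.6, 84.9 and 207, and Foxp3, at 93.7, 170 and 165. The others did not follow one course, with Il2ra at 213, 268 and 199, Ctla4 at 42.9, 53.5 and 57.8 and Tnfrsf18 at 1358, 1394 and 1926. Mesothelial markers, from the lining of the spleen and abdomen, were higher in Sample 3 than in Sample 1 for 6 of 7 genes. Of all detected probes 47.8% were higher in that comparison. Their summed signals were 1628, 2162 and 4727, and 136, 720 and 3670 without Wt1, the brightest. Msln read 96.4, 390 and 2283. In Sample 1 only 3 of these 7 were well above background, and with the other 4 at their bound the median log2 ratio was 3.92. Adipocyte markers, which bear on Pla2g5 and Pla2g16, had a median of 0.55 over 7 detected genes and summed signals of 1673, 977 and 2944, lowest in Sample 2, where Pla2g5 was lowest and Pla2g16 highest. Of 11 exocrine pancreas markers 6 were well above background in Sample 1, and with the other 5 at their bound the median was 1.17, with summed signals between 323 and 1030. Erythroid markers had a median of -0.62, with 10 of 10 lower in Sample 3 than in Sample 1, where 47.8% of all detected probes were higher. Of these 5 were at or below 0.66, beside 14.7% of all detected probes. Islet endocrine markers were highest in Sample 2, 12 of 12 above Sample 1 with a median of 1.80, beside 51.6% of all detected probes higher. Their medians were -2.59 in Sample 3 over Sample 2 and -0.71 in Sample 3 over Sample 1. In the latter 4 of 12 were higher and 6 were at or below 0.66, beside 47.8% and 14.7% of all detected probes. All 3 medians have genes dim on 1 array at their bound. The part of these cells in the values of the family was not tested.

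**Figure D3:**
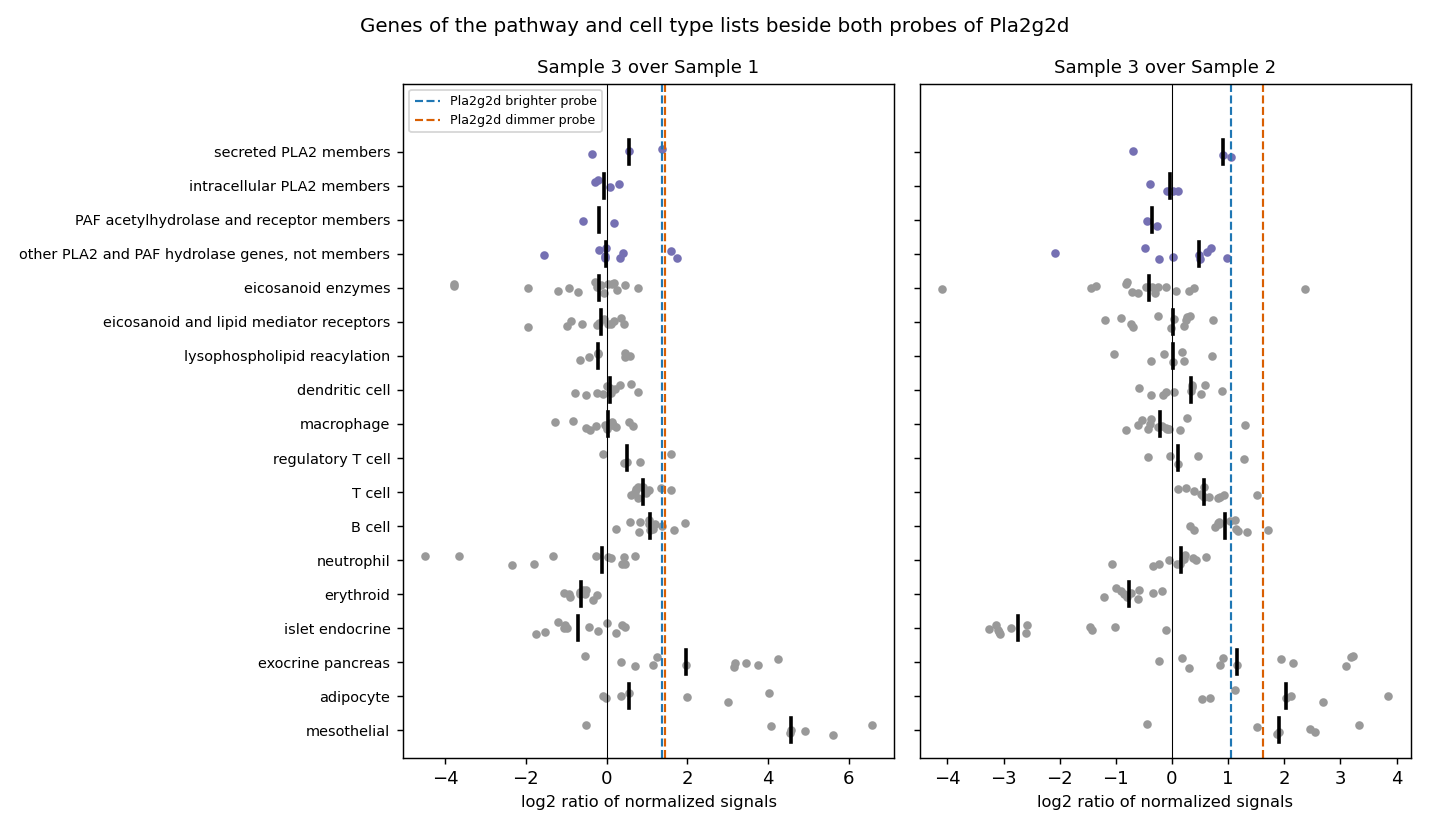
Log2 ratio of normalized signals for each detected gene (1 point, brightest probe) of the pathway and cell type lists, in Sample 3 over Sample 1 (left) and over Sample 2 (right), with a black bar at each list's median; genes dim on 1 array are drawn at their measured ratio, not at a bound. Purple points are phospholipase A2 and PAF hydrolase genes, and dashed lines mark the Pla2g2d probes, at 1.37 and 1.45 on the left and 1.04 and 1.63 on the right.

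The genes whose course over the 3 arrays was most like the mean of both Pla2g2d probes, by distance over the log2 ratios of Sample 2 and Sample 3 over Sample 1, were Trp53inp1, Siglecg, Tox, Sln and Dock6. The search covered 14174 genes well above background on all 3 arrays, and 66 probes, 0.35% of those searched, lay within a distance of 0.25. The nearest, Trp53inp1, read 1736, 1837 and 4654, with a distance of 0.015. Siglecg, a lectin receptor of B cells, read 53.0, 56.6 and 140, and Tox, a nuclear factor of T cell development, 87.7, 90.0 and 232. Dock6 read 1991, 2140 and 5136, and Sln 13.9, 14.9 and 37.3. With 3 arrays the pattern rests on 2 ratios, and the Pla2g2d probes differed by 0.50 in one of them, more than any of these distances.

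**Figure D4:**
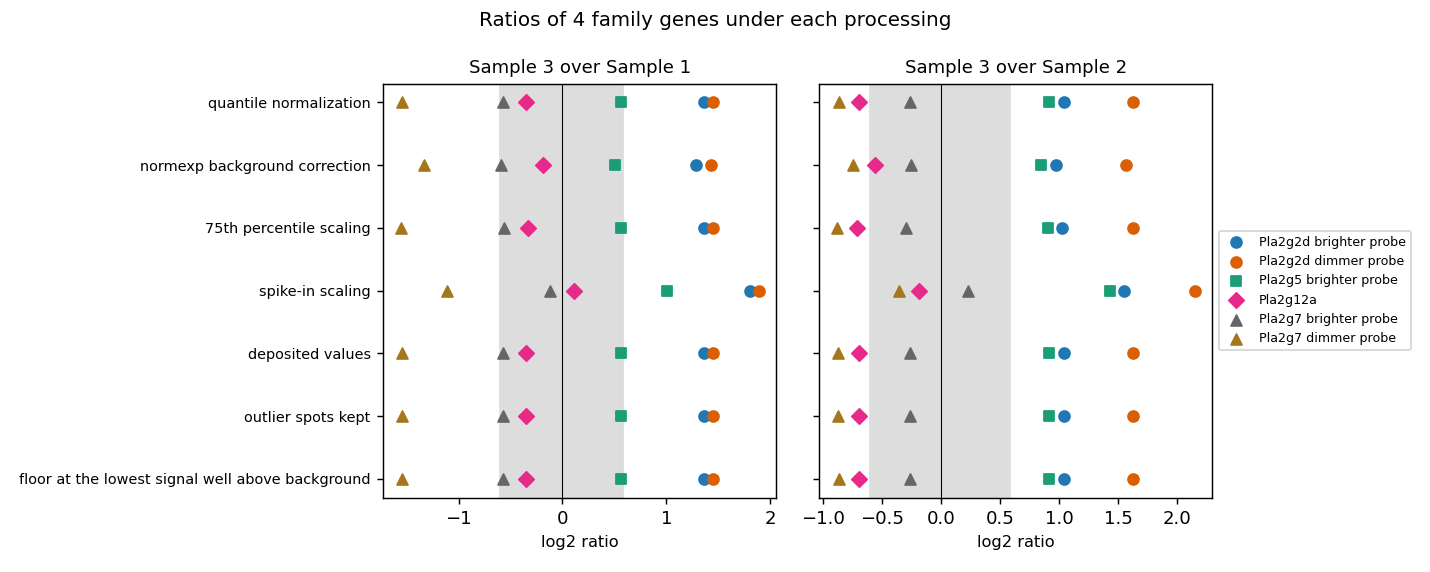
Log2 ratio of 6 probes of Pla2g2d, Pla2g5, Pla2g12a and Pla2g7 under each way of processing, in Sample 3 over Sample 1 (left) and over Sample 2 (right); the grey band runs from a ratio of 0.66 to 1.5. Both Pla2g2d probes stay right of the band throughout, between 0.97 and 2.15, while under spike-in scaling all probes move right, Pla2g12a on the left and the brighter Pla2g7 probe on the right crossing 0.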

How the data were processed

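Total RNA of spleen was labeled with Cy3 and hybridized to 3 one-color Agilent SurePrint G3 Mouse 8x60K arrays, 1 per condition, all on 1 slide. The authors deposited each array's scanner output, which gives each spot a linear intensity with flags and an error, and a table of processed intensity values. Per the file headers Feature Extraction 10.7.1.1 subtracted background and corrected spatial trends; the submitters' processing notes name version 9.5.1.1. The labels and the paper also name different RNA and labeling kits, and neither disagreement was settled here.

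Control and outlier spots were left out, spots of a probe averaged, the 3 arrays quantile normalized, a floor of 1 set and log2 taken. The deposited table's values for the 13 probes differed from these by at most 0.0011 on the log2 scale, so its scale is linear; 99.7% of all its values were within 0.01. Ratios, Z-scores and criteria are as given in the text, and no p-value was computed. The number of arrays limits the precision. Each list used the brightest detected probe of a gene. List sums without the brightest gene and list medians with dim genes at their bound were added after seeing the data. The text names all probes of the 10 genes, other detected family genes, up to 4 genes a list by size of change past 1.5 or 0.66, and the 5 genes nearest Pla2g2d; other genes named were chosen after their values were seen. Members and lists were chosen with earlier results of these data known. The calls were tested on simulated data, which hold no information on the spread between mice. Gene names are those of the array, and 22290 of 34796 were found in RefSeq's GRCm38.p6 table. R 4.3.3 with limma 3.58.1 (normexp, offset 50) and Python 3.11.15 with numpy 2.4.6, pandas 2.3.3 and matplotlib 3.10.9 were used.

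The alternatives were normexp background correction, scaling to the 75th percentile or to 7 spike-in controls, the deposited values, outlier spots kept, no filter on detection, detection required on all 3 arrays, each array's lowest well-above-background signal as the floor, and Z-scores from 250 probes, from a single SD of the array or from a scaled median absolute deviation.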

Additional observations from a re-analysis of the deposited data

How the results depend on the processing

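Both Pla2g2d probes kept their direction and stayed above a ratio of 1.5 in Sample 3 over Sample 1 and over Sample 2 under all 24 alternative values. The deposited values, kept outlier spots and the raised floor could hardly change probes this bright, so their part of these values adds little. Of 114 alternative counts of family probes, 100 stayed within 1.5 times the reported one. Spike-in scaling gave 4 probes at or above 1.5 and 0 down by the full criteria for Sample 3 over Sample 1, 0 at or below 0.66 and 3 up by the full criteria for Sample 3 over Sample 2, and 0 at or above 1.5 for Sample 2 over Sample 1. Normexp gave 1 at or below 0.66 for Sample 3 over Sample 2, and 0 in each direction for Sample 2 over Sample 1. With no detection filter 2 were at or below 0.66 for Sample 3 over Sample 1 and 2 at or above 1.5 for Sample 2 over Sample 1. With 1 SD over all probes 0 met the full criteria in either direction for Sample 3 over Sample 1, and with a scaled median absolute deviation 3 were up and 1 down for Sample 3 over Sample 2. Over the whole array, 4107 probes were at or above 1.5 and 4720 at or below 0.66 in Sample 3 over Sample 1, against 1833 and 1708 under normexp, 10973 and 2271 under spike-in scaling and 7375 and 7635 with no detection filter. For Sample 3 over Sample 2 the counts were 3977 and 4609, against 1727 and 1552, 12905 and 1676, and 7109 and 7635. For Sample 2 over Sample 1 they were 3252 and 3326, against 941 and 1130, 2526 and 4192, and 6211 and 6021. Detection on all 3 arrays gave 2665 at or below 0.66 in Sample 3 over Sample 1, 2704 in Sample 3 over Sample 2, and 1925 and 1922 in the 2 directions of Sample 2 over Sample 1. The full criteria gave 808 up and 709 down in Sample 3 over Sample 1, against 1680 and 361 under spike-in scaling and 1699 and 1738 with the scaled median absolute deviation. In Sample 3 over Sample 2 they gave 767 and 569, against 1926 and 249, and 1484 and 1518; in Sample 2 over Sample 1, 613 and 819, against 506 and 960, and 1349 and 1564. The raised floor gave 1238 up in Sample 3 over Sample 1 and 1162 in Sample 3 over Sample 2, and no detection filter gave 860 down in Sample 3 over Sample 2 and 985 up and 1276 down in Sample 2 over Sample 1. The cause was not tested. With 1 array per condition no replicate could be left out, and dim probes such as Pla2r1 are limited by background. No paired analysis was possible because each group has 1 array.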
